A study of Mus musculus with 7 samples.

Results

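Reactive astrocyte genes were followed through primary cultures of newborn mouse hippocampus. They are 10 in number: the intermediate filament genes Gfap and Vim, the secreted acute-phase genes Lcn2, Serpina3n and C3, the metalloreductase gene Steap4, the chemokine genes Cxcl1 and Ccl2, and the regulators Cebpd and Socs3. They were chosen by symbol among the 31053 genes of the deposited tables, and all 10 passed the filter on low counts. The choice rested on values of these same libraries, namely that Lcn2 differed strongly between libraries of the same day while Gfap and Serpina3n were higher on later days, so those 3 genes are described without a test.

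Astrocytes that meet injury, infection or inflammatory cytokines enlarge, raise their intermediate filaments and secrete acute-phase proteins and chemokines. Interleukin-6 family cytokines act through gp130 and the transcription factor STAT3, and interleukin-1 and tumour necrosis factor act through NF-kB; C/EBP factors take part in both responses. GFAP and vimentin are also made by radial glia and by immature astrocytes of the healthy newborn brain, and an astrocyte in culture with serum is commonly in a reactive state.

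Hippocampi of P0 mice were dissociated with trypsin, plated on poly-D-lysine coated glass in medium with serum and B-27, and sampled as single cells with the 10x 3' v2 chemistry on day in vitro (DIV) 1, 3, 5 and 7. There was 1 library of DIV1 and there were 2 libraries each of DIV3, DIV5 and DIV7, with no other treatment, and the days share all culture conditions that the labels name. The labels do not say that 2 libraries of a day came from separate cultures or pups, so a p-value here measures only the spread between libraries, which may be technical. The cells were described by the submitters as sorted, without a gate.

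The matrices hold counts of unique molecular identifiers (UMIs), and 26583 cells were analysed, between 2827 and 5068 a library, with median depths of 7130 to 20120 UMIs per cell. Radial glia or astrocyte-like cells were 8562 of these, 868 to 1824 a library and 21.2% to 52.0% of its cells. Of their 20 marker genes, 19 had any UMI in the summed class on DIV1 and 20 in each later library. In sums over so many cells this is a low bar and says little about the class name. Levels are given as CPM, the UMIs of a gene per 1000000 UMIs summed over all cells of a class in a library. DIV3 replicate 1 stood apart in depth and in content: 1614 of the 1680 cells of cluster 4, led by Lcn2 and the interferon-induced genes Isg15 and Ifit3, came from it. Other clusters carried most of the class elsewhere: cluster 11 (Hes5) on DIV1, cluster 12 (Pcp4, Slco1c1) in DIV3 replicate 2, cluster 0 (Neat1, Wisp2) in the first replicates of DIV5 and DIV7, and cluster 3 (Slc1a2, Aqp4) held the largest share in the second. The 10 genes were left out of the genes used for clustering. Any 2 libraries shared at most 0.883% of the cell barcodes of the smaller.

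The 250 bases before the annotated start were read from RefSeq (build GRCm38.p6) for 8 of the genes. Of these, 4 are shown because their levels carry the results below. They are Lcn2 and Steap4 for the contrast between replicates, C3 for its level on DIV7 and Cxcl1 for its level on DIV1. Each is written 5' to 3' on the gene's own strand and ends at the base before the start. Capitals mark matches to 3 motifs searched on both strands: the STAT motif TTCNNNGAA, the C/EBP motif TTGCGNAA (TTNCGCAA on the other strand), and an NF-kB motif of 10 bases, the one in capitals in Cxcl1 with any base at the fifth position. No matches overlapped.
Lcn2 (chr2:32387740-32387989, minus strand): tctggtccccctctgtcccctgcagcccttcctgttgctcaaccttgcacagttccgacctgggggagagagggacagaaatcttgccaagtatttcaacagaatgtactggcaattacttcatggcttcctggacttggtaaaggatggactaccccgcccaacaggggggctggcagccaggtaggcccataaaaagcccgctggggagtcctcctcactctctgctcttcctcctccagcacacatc
Steap4 (chr5:7960222-7960471, plus strand): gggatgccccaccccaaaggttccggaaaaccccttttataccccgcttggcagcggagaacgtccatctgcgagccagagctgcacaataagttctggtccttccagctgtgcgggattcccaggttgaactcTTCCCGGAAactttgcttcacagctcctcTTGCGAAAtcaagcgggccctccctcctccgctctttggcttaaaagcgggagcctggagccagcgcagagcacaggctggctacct
C3 (chr17:57228137-57228386, minus strand): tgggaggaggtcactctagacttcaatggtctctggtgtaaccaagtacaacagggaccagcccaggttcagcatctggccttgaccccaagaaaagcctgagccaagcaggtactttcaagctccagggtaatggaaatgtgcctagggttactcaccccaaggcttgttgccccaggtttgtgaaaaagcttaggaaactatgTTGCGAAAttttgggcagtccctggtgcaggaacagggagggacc
Cxcl1 (chr5:90890995-90891244, plus strand): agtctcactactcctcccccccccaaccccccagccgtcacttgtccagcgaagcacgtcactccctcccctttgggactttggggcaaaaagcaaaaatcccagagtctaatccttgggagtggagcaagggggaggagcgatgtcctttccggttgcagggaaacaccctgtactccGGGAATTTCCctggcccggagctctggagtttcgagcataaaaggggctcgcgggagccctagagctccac

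Steap4 held a STAT match at -116 to -108 and a C/EBP match at -87 to -80, C3 a C/EBP match at -45 to -38, and Cxcl1 an NF-kB match at -71 to -62. Socs3, the feedback inhibitor of STAT3 signalling, held a STAT match at -154 to -146. No letters of these motifs were found in this window of Lcn2, Gfap, Serpina3n or Vim. Of 32851 windows of the same length before RefSeq starts, 7.02% held the STAT motif, 0.356% the NF-kB motif and 0.67% the C/EBP motif. A match is a description of the letters and not a measured binding site.

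Gfap (ENSMUSG00000020932), the intermediate filament of astrocytes, was higher on each later day in radial glia or astrocyte-like cells. It stood at 955 CPM on DIV1, 2178 and 2021 in replicates 1 and 2 of DIV3, 5396 and 9715 on DIV5, and 9156 and 17309 on DIV7. The days DIV3, DIV5 and DIV7 overlapped at one point: DIV7 replicate 1 lay below DIV5 replicate 2. Replicate 1 and replicate 2 were within 1.08-fold of each other on DIV3, and replicate 2 was 1.80-fold above replicate 1 on DIV5 and 1.89-fold on DIV7. The gain was per cell as well as in the sum, since the median cell held 94 and 172 Gfap UMIs in replicates 1 and 2 of DIV7, against 36 and 22 in replicates 1 and 2 of DIV3. Glutamatergic neuron-like cells, which should lack the gene, held 254 and 636 CPM on DIV7, against 73.9 and 71.2 on DIV3. Within cluster 0 alone, which spans 4 libraries of DIV5 and DIV7, Gfap was 8031 and 8271 CPM on DIV7, against 5679 and 6808 on DIV5.

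Vim (ENSMUSG00000026728), the filament shared by radial glia, immature astrocytes and mesenchymal cells, had no such order of days. Its levels in the class were 1826 CPM on DIV1, 2258 and 1498 on DIV3, 1768 and 1148 on DIV5, and 2343 and 1691 on DIV7, with replicate 1 above replicate 2 on each of the 3 days. DIV7 and DIV3 overlapped, and edgeR's quasi-likelihood test found a log2 difference of -0.04 ± 0.31 (SE; adjusted p = 0.943), whose sign turned to 0.10 with total-count scaling. Vim was also high outside glia, at 2407 CPM in mural-like and 1623 in fibroblast-like cells.

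**Figure D1:**
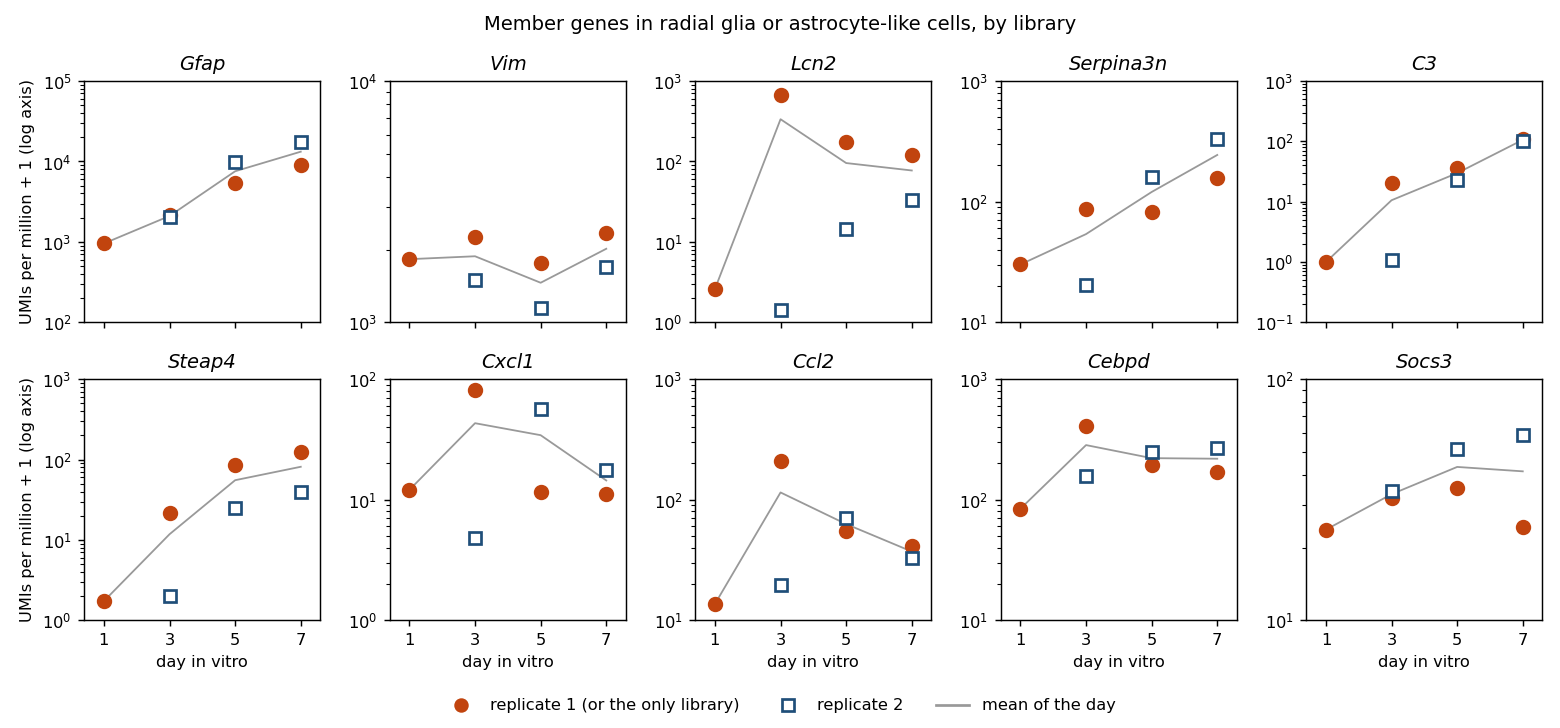
Each panel plots 1 gene in radial glia or astrocyte-like cells: day in vitro on the x axis, CPM plus 1 on a log y axis whose range differs between panels, 1 point for each of 7 libraries and a line through the day means. Gfap lies at 955 on DIV1 and at 9156 and 17309 on DIV7, while the 2 points of Lcn2 and of Steap4 are separated on DIV3, DIV5 and DIV7 with replicate 1 above replicate 2.

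Lcn2 (ENSMUSG00000026822), which encodes lipocalin 2, a secreted protein that binds bacterial siderophores, differed most between libraries of the same day. In radial glia or astrocyte-like cells it reached 668 CPM in DIV3 replicate 1, against 0.412 in replicate 2 of that day. The class name of most of these cells in DIV3 replicate 1, and on DIV1, depended on the clustering. Lcn2 stood at 176 and 13.4 in replicates 1 and 2 of DIV5, at 120 and 32.4 on DIV7, and at 1.60 on DIV1. Replicate 1 was above replicate 2 on all 3 days, 1621-fold on DIV3, 13.1-fold on DIV5 and 3.71-fold on DIV7, where the first of these ratios rests on 22890 and 5 UMIs. DIV3 replicate 1 gave 81.5% of the 44150 Lcn2 UMIs of the series from 19.1% of its cells.

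The Lcn2 transcripts were unevenly spread between cells. In DIV3 replicate 1, 60.7% of radial glia or astrocyte-like cells (exact 95% binomial interval 58.4% to 63.0%) held an Lcn2 UMI, the highest cell held 256, and the 10% of cells with the most held 60.6% of the UMIs. With every cell thinned to 3000 UMIs the share was 41.8%, against 0.342% in DIV3 replicate 2. At DIV7 the thinned shares were 13.9% and 3.91% in replicates 1 and 2, and on DIV5 they were 14.5% and 2.65%. Glutamatergic neuron-like cells, which should lack the gene, had a thinned share of 2.85% in DIV3 replicate 1, with median depths of 19495 UMIs in the glial class and 8533 in the neurons. The binomial and Poisson intervals cover counting error only.

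The contrast between replicates was also seen within single clusters. In cluster 0, Lcn2 was at 170 and 16.0 CPM in replicates 1 and 2 of DIV5, and at 49.4 and 9.63 on DIV7. In cluster 3 it was at 649 in DIV7 replicate 1, from 106 cells, and at 42.4 in DIV7 replicate 2, from 1182 cells. The 649 in this cluster was close in size to the 668 of the whole class in DIV3 replicate 1, and 59.4% of those 106 cells held an Lcn2 UMI, against 5.26% of the glutamatergic neuron-like cells of that library.

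Lcn2 was also high in other classes of DIV3 replicate 1. There it reached 497 CPM in ciliated-like, 444 in choroid plexus-like, 311 in microglia or macrophage-like and 295 in cycling cells, against 10.2 in glutamatergic neuron-like and 9.62 in fibroblast-like cells. The same 4 classes of DIV3 replicate 2 held 6.47, 1.03, 0 and 1.03 (a count of 0 allows up to 2.07 in the microglia, the CPM of 3 UMIs). Such bounds lie below the exact 95% Poisson limit, which was 2.54 there. Of 166 ciliated-like cells of DIV3 replicate 1, 161 lay in cluster 23 (Crip1, Irf7), with a ciliated score of 0.359. In replicate 2, 44 of 49 lay in cluster 1, with a score of 1. At Leiden resolution 2 the cluster led by Crip1, with 164 cells of DIV3 replicate 1, was unnamed. Lcn2 and Gfap stood at 311 and 230 in the microglia or macrophage-like cells of DIV3 replicate 1, and at 10.2 and 73.9 in its glutamatergic neuron-like cells. In Cajal-Retzius-like cells no Lcn2 UMI was counted in 329 cells of all libraries, which allows up to 0.697 CPM over the pooled cells. Of these cells 168 came from DIV1 and only 18 from DIV3 replicate 1, so the bound says little about that library.

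**Figure D2:**
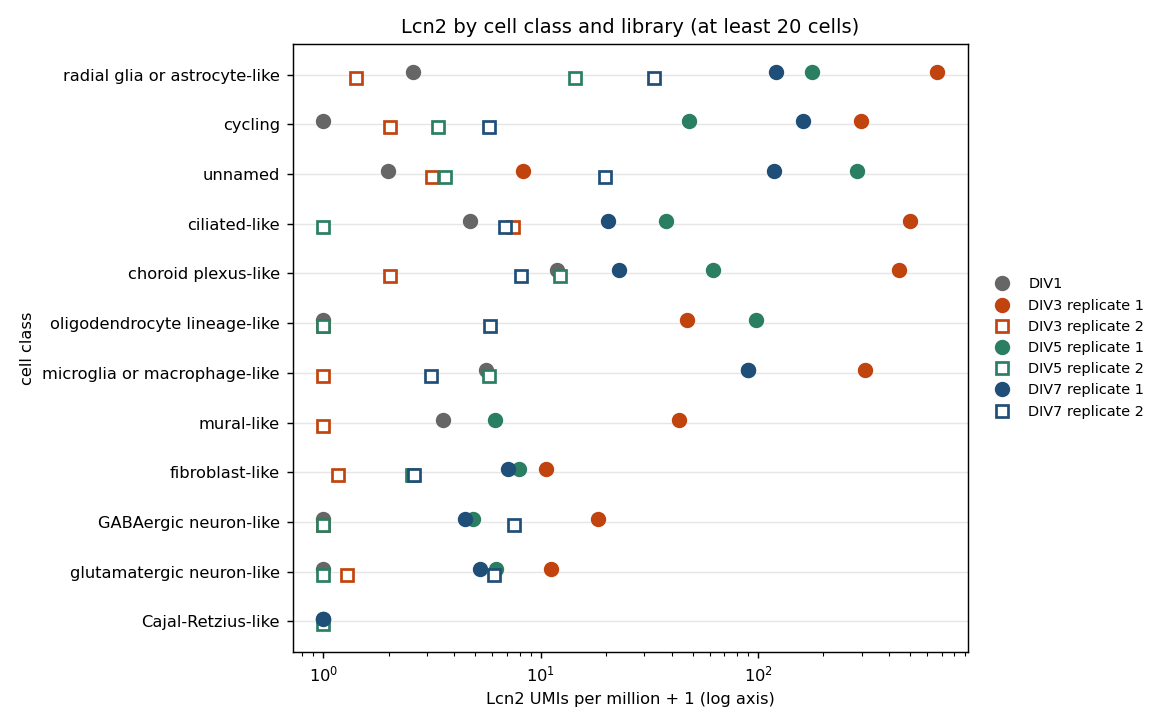
Lcn2 in CPM plus 1 (log x axis) by cell class (y axis), with 1 point for each library that had at least 20 cells of the class, filled for replicate 1 and for DIV1 and open for replicate 2. DIV3 replicate 1 is the rightmost point in radial glia or astrocyte-like (668), ciliated-like (497), choroid plexus-like (444) and microglia or macrophage-like cells (311), and neurons stay at or below 17.4.

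Interferon-induced genes moved with Lcn2 in DIV3 replicate 1. The 18 genes of an interferon list summed to 2097 CPM in its radial glia or astrocyte-like cells, against 233 to 521 in the other 6 libraries, and all 18 were detected in each. Isg15, a ubiquitin-like protein, was at 16.1 ± 6.16 on DIV7 and 272 ± 330 on DIV3 (TMM-scaled CPM, SD, n = 2 each), a log2 difference of -4.08 ± 1.16 (SE; edgeR adjusted p = 0.0540). Microglial markers did not follow Lcn2: their 16 genes summed to 9.80 in the class of DIV3 replicate 1 and to 6.89 to 59.8 elsewhere, highest in DIV7 replicate 2. The part of the interferon genes in the Lcn2 levels was not tested.

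Serpina3n (ENSMUSG00000021091), a secreted serine protease inhibitor, was like Gfap in being high on DIV7 and unlike it in its spread on DIV3. In radial glia or astrocyte-like cells it stood at 29.2 CPM on DIV1, 86.3 and 19.4 on DIV3, 81.0 and 158 on DIV5, and 157 and 329 on DIV7. Both DIV7 libraries were above both DIV3 libraries, and DIV5 overlapped with each. The thinned share of cells with a UMI was 49.7% in DIV7 replicate 2, against 8.05% in its glutamatergic neuron-like cells. Oligodendrocyte lineage-like cells, 734 in number, held more than the class on DIV3, at 498 and 612 CPM, and in DIV5 replicate 1, at 460. In DIV5 replicate 2 they held less, at 122. Serpina3n belongs to a cluster of closely related genes, so reads shared with its neighbours are a source of uncertainty.

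C3 (ENSMUSG00000024164), the central complement component, was highest on DIV7 with the cell filter used here. No C3 UMI was counted in the class on DIV1, which allows up to 0.369 CPM. At DIV3 it stood at 19.1 and 0.0824 in replicates 1 and 2, the second from 1 UMI, on DIV5 at 35.8 and 21.7, and on DIV7 at 110 and 99.6. The 2 libraries of DIV7 were the closest pair of any day and lay above the other 5. With the stricter cell filter described below, the level of DIV7 replicate 1 fell to 19.1. The test of DIV7 against DIV3 gave a log2 difference of 3.22 ± 1.29 (SE; edgeR adjusted p = 0.124). Ciliated-like cells held less on DIV7, at 70.7 and 37.8 CPM, and on DIV5, at 18.8 and 10.6. They held more on DIV3, at 82.0 and 12.9, where replicate 1 was mostly cluster 23 and the later days mostly cluster 1.

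Steap4 (ENSMUSG00000012428) encodes a metalloreductase of iron and copper handling that inflammatory cytokines induce. With the cell filter used here it was higher on DIV7 than on DIV3, like C3, and higher in replicate 1, like Lcn2. Its levels were 0.739 CPM on DIV1, then 20.6 and 0.989 in replicates 1 and 2 of DIV3, 84.8 and 23.8 on DIV5, and 122 and 38.7 on DIV7. Replicate 1 was 20.8-fold, 3.56-fold and 3.15-fold above replicate 2 on DIV3, DIV5 and DIV7. With the stricter cell filter described below this order turned on DIV7, and the DIV7 level of replicate 1 was close to its DIV3 level. Without that filter both DIV7 libraries were above both of DIV3, with a log2 difference of 2.64 ± 1.20 (SE; edgeR adjusted p = 0.162). In cluster 3 it was at 449 in DIV7 replicate 1 and at 48.8 in DIV7 replicate 2, as C3 was at 435 and 121. The unnamed cells were above the class in the first replicates of DIV7 and DIV5, at 348 and 128 CPM. Ciliated-like cells, mostly cluster 23 there, were above the class in DIV3 replicate 1, at 45.7.

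With a stricter cell filter, 33 of 63 member levels of at least 5 CPM in the class moved by over 1.5 times. The filter raised the limit on detected genes and lowered that on mitochondrial UMIs together. Levels of Lcn2, Serpina3n, C3 and Steap4 are given here, C3 in DIV7 replicate 1 only. The order of days of C3 and Gfap under this filter is not described. The mitochondrially encoded genes summed to 26877 CPM on DIV1 and to between 49262 and 72989 later in the class, highest in DIV7 replicate 1. With cells of at least 1000 genes and at most 5% mitochondrial UMIs only, 84 of 948 cells of the class remained in DIV7 replicate 1, and its Steap4 level was 9.55 in place of 122, C3 19.1 in place of 110, Lcn2 23.4 in place of 120 and Serpina3n 40.3 in place of 157. Lcn2 and Steap4 in DIV3 replicate 1 were then 412 and 8.64. Under this filter Lcn2 stayed above its same-day partner in replicate 1 on all 3 days. It stood at 412 and 0 on DIV3 (a count of 0 allows up to 0.753), 85.0 and 13.2 on DIV5, and 23.4 and 15.1 on DIV7. The DIV7 pair was the closest and rests on only 84 and 365 cells. Steap4 did not on DIV7, at 9.55 in replicate 1 and 16.4 in replicate 2. Its 9.55 in DIV7 replicate 1 was also close to the 8.64 of DIV3 replicate 1. Serpina3n then overlapped between the days, at 40.3 and 147 on DIV7 and 47.8 and 9.03 on DIV3. The part of mitochondrial content alone in these levels was not tested.

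The chemokine genes Ccl2 and Cxcl1, which draw monocytes and neutrophils, also had high levels outside astrocyte-like cells. Ccl2 (ENSMUSG00000035385) was at 1589 CPM in mural-like cells on DIV1 and at 834 in DIV3 replicate 1, where microglia or macrophage-like cells held 447 and 592. The mural name of the DIV1 cells depended on the clustering. At Leiden resolution 2 the mural-like cluster held 4 DIV1 cells. A separate cluster of 142 cells, all of DIV1, was then unnamed, with scores of 0.353 for fibroblast and 0.247 for mural. Mural-like cells were below microglia or macrophage-like cells in the other 2 libraries with at least 20 of them, with 273 against 450 for DIV3 replicate 2 and 202 against 382 for DIV5 replicate 1. In microglia or macrophage-like cells it lay between 369 and 592 in every library, at 447 on DIV1, 592 and 450 on DIV3, 382 and 459 on DIV5, and 369 and 408 on DIV7. In radial glia or astrocyte-like cells it was at 12.7 on DIV1, 209 and 18.7 on DIV3, 54.2 and 69.5 on DIV5, and 40.7 and 31.7 on DIV7. DIV3 replicate 1 was the high library again, and DIV7 and DIV3 overlapped (log2 difference -1.84 ± 0.93, SE; edgeR adjusted p = 0.202).

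Cxcl1 (ENSMUSG00000029380) had its highest level at the first day and in microglia. The 74 microglia or macrophage-like cells of DIV1 held 814 CPM (exact 95% Poisson interval 755 to 876), and 39.2% of them held a UMI, against 0.786% of glutamatergic neuron-like cells of that day, at median depths of 9662 and 5853 UMIs. The same class held 75.7 and 0.689 on DIV3, 4.12 and 9.53 on DIV5, and 1.03 and 17.5 on DIV7, so every later library was below DIV1, which has no replicate. Mural-like cells held 260 on DIV1, where that name depended on the clustering. In radial glia or astrocyte-like cells Cxcl1 was at 11.1 on DIV1, 80.4 and 3.79 on DIV3, 10.6 and 55.9 on DIV5, and 10.2 and 16.7 on DIV7, with overlap of DIV7 and DIV3 (log2 difference -1.81 ± 1.28, SE; edgeR adjusted p = 0.345). At DIV5 it was the second replicate that was high, unlike Lcn2 and Steap4.

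Cebpd (ENSMUSG00000071637), a C/EBP transcription factor of the acute-phase response, was at 83.2 CPM on DIV1, 409 and 156 on DIV3, 193 and 247 on DIV5, and 169 and 267 on DIV7 in the class. All later libraries were above DIV1, and DIV7 and DIV3 overlapped (log2 difference -0.50 ± 0.51, SE; edgeR adjusted p = 0.506). Socs3 (ENSMUSG00000053113) was at 22.8 on DIV1, 31.2 and 33.5 on DIV3, 34.4 and 50.1 on DIV5, and 23.4 and 57.5 on DIV7. The 2 libraries of DIV7 enclosed those of DIV3 (log2 difference 0.25 ± 0.45, SE; edgeR adjusted p = 0.725). In DIV3 replicate 1, where Lcn2 was highest, Socs3 lay just under its level in replicate 2. Cajal-Retzius-like cells were above the class in 3 of the 4 libraries with at least 20 of them, at 57.0 on DIV1, 59.2 in DIV5 replicate 1 and 85.5 in DIV7 replicate 1, and below it in DIV5 replicate 2, at 39.3.

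**Figure D3:**
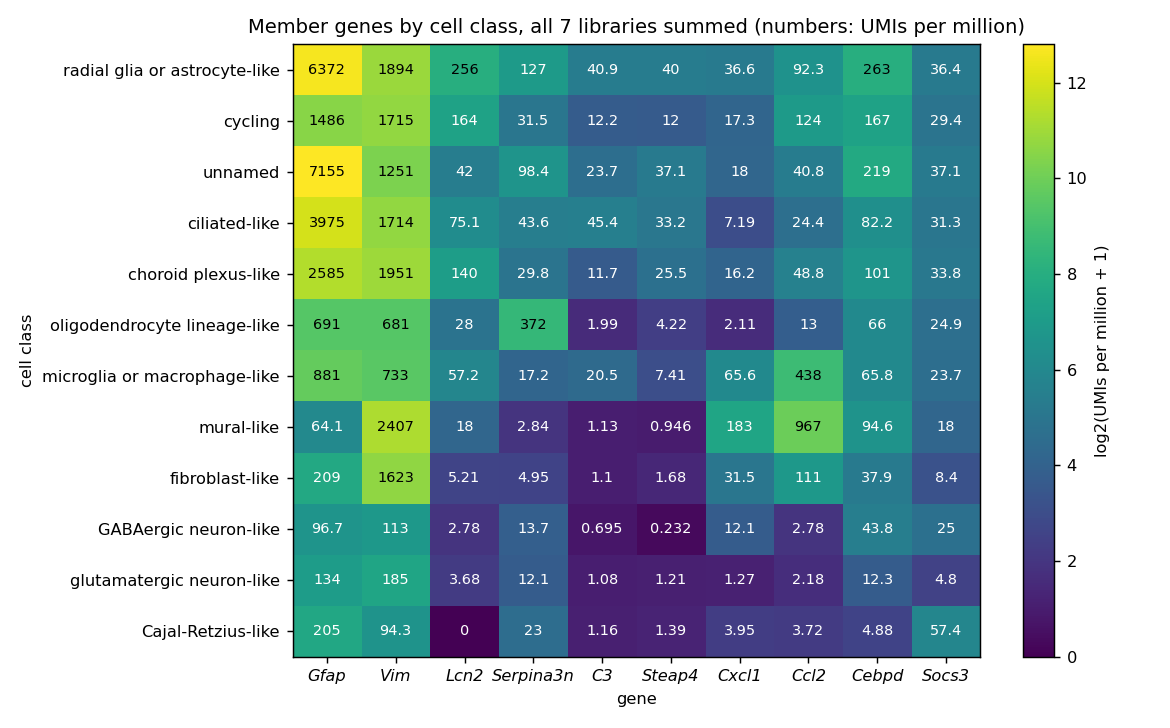
Rows are cell classes and columns the 10 genes; the number in each square is CPM over all 7 libraries summed and the colour its log2 after adding 1, to be read down a column. Libraries with many UMIs of a class weigh most in its number, so the order of classes can differ within a library: Lcn2 is 256 in radial glia or astrocyte-like and 42.0 in unnamed cells here, but 176 and 285 in DIV5 replicate 1, and Ccl2 is 967 in mural-like and 438 in microglia or macrophage-like cells, but 202 and 382 in DIV5 replicate 1.

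None of the 7 genes open to a test passed at an adjusted p of 0.05 in radial glia or astrocyte-like cells between DIV7 and DIV3, where 16.6% of 14364 genes passed. The libraries of the 2 days did not overlap for C3 and Steap4, higher on DIV7, and no member of the 7 was lower without overlap; among all genes 33.4% were higher and 30.4% lower without overlap, so 2 of 7 is near the background. Non-overlap was read on the TMM scale. With the same test in all cells summed, where 22.8% of 17442 genes passed, Steap4 (log2 difference 2.57 ± 1.22) and C3 (3.03 ± 1.21) were also short of the threshold, at adjusted p of 0.167 and 0.115. They were again the 2 of 7 that were higher without overlap, and none was lower, against 33.3% and 33.1% of all genes. The labels do not link replicate numbers across days. In an alternative edgeR fit with the number as a block, Steap4 and C3 passed, at adjusted p of 0.00991 and 0.0421. That fit holds only if libraries of the same number belong together. A sum over all cells cannot tell more cells of a type from more RNA per cell. Between DIV5 and DIV3, and between DIV7 and DIV5, no gene of the class passed in edgeR (0% called), although 2835 and 824 genes had an unadjusted p under 0.05 and DESeq2 called 742 and 14. Without overlap, DIV5 was above DIV3 for 2 of 7 (Steap4 and C3) and below for none, against 26.4% and 26.1% of all genes. DIV7 was above DIV5 for 2 of 7 (Vim and C3) and below for 1 (Ccl2), against 19.6% and 19.3% of all genes.

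Of 17 cytokine receptor and signalling genes, 4 were higher and 0 lower on DIV7 than on DIV3 in radial glia or astrocyte-like cells, where 7.97% of all genes were called higher and 8.65% lower. The list had a median log2 difference of 0.81, against 0.06 over all genes. The 4 were Osmr, Il6ra, Il6st and Cebpb. In TMM-scaled CPM, Osmr, the oncostatin M receptor, averaged 98.5 ± 20.3 on DIV7 and 17.7 ± 2.75 on DIV3 (SD, n = 2 each; log2 difference 2.48 ± 0.25, SE; edgeR adjusted p = 0.0167). Il6ra, the interleukin-6 receptor, averaged 50.9 ± 9.84 on DIV7 and 9.57 ± 2.11 on DIV3 (SD, n = 2 each; edgeR adjusted p = 0.0170). Il6st, which encodes the shared subunit gp130, averaged 194 ± 60.9 on DIV7 and 61.7 ± 11.5 on DIV3 (edgeR adjusted p = 0.0218), and Cebpb, another C/EBP factor, was higher by a log2 difference of 2.61 ± 0.38 (SE; edgeR adjusted p = 0.0185). Of the inducing ligands, 1 of 7 tested rose, namely Lif, which averaged 20.4 ± 3.58 on DIV7 and 4.98 ± 0.380 on DIV3. Il6 and Il1a of that list were sparse: the class held 3 and 21 Il6 UMIs in replicates 1 and 2 of DIV7, against 3 and 1 on DIV3, and no Il1a UMI in any library.

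The adjusted p of the genes named as higher or lower below lay between 0.0167 and 0.0488 in edgeR. The counts of each list stand against 7.97% of all genes called higher and 8.65% called lower. Of the 8 other pan-reactive genes 3 were higher on DIV7 and 0 lower: Osmr, the sphingosine phosphate receptor gene S1pr3 (log2 difference 2.00 ± 0.27) and the hyaluronan receptor gene Cd44 (1.30 ± 0.29). Of 11 A1 genes, the set described after inflammatory induction, 1 was higher, the glycosyltransferase gene Ggta1 (1.98 ± 0.30). That is near the share of all genes. Of 12 A2 genes, described after ischaemia, 4 were higher: Emp1 (1.54 ± 0.39), the sphingosine kinase gene Sphk1 (1.45 ± 0.28), Cd109 (1.27 ± 0.21) and Tm4sf1 (1.21 ± 0.27). The medians of these 3 lists were 1.15, 0.93 and 1.11.

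Among genes tied to the secreted members, the complement genes C4b and C1s1 were higher on DIV7. C4b, a complement component near-identical to C4a, was at 36.2 ± 20.6 on DIV7 and 5.34 ± 1.03 on DIV3 (TMM-scaled CPM, SD, n = 2 each). C1s1, a complement protease with a close copy, was at 9.15 ± 3.75 on DIV7 and 1.76 ± 1.24 on DIV3. Of 12 other chemokine genes 1 was higher, near the 7.97% of all genes. It was the neutrophil chemokine gene Cxcl5, at 69.6 ± 36.8 on DIV7 and 5.63 ± 6.48 on DIV3. The list median was -0.12. Of 3 tested receptors for the secreted members none passed: Slc22a17, the lipocalin 2 receptor, had a log2 difference of 0.95 ± 0.36 and Lrp2, an endocytic receptor, one of 0.62 ± 0.59 (SE; edgeR adjusted p = 0.109 and 0.483).

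For the next lists the background was again 7.97% of all genes higher and 8.65% lower. For NF-kB genes 2 of 14 were higher and 0 lower, Nfkbiz (log2 difference 1.39 ± 0.32) and Nfkb1 (0.86 ± 0.21), with a list median of -0.20. Among filament-associated genes 1 of 5 was higher, the cytolinker gene Plec (1.05 ± 0.22), and 1 lower, the lamin gene Lmnb1 (-1.38 ± 0.31). Of 11 metal-handling genes 3 were higher: the metallothionein genes Mt1 (1.66 ± 0.29) and Mt2 (1.22 ± 0.32) and the metal transporter gene Slc39a14 (1.29 ± 0.35). None of 18 interferon genes passed; their median was -1.45, and Bst2, a membrane protein that tethers viruses, was at 65.2 ± 40.3 on DIV7 and 513 ± 567 on DIV3.

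Immediate early and dissociation genes were tested as a list of their own, against 7.97% of all genes called higher and 8.65% called lower. Of 14 such genes 5 were higher on DIV7 and 0 lower, with a list median of 1.53; the 4 largest were Fosb (log2 difference 3.39 ± 0.70), Hspa1b (2.54 ± 0.65), whose transcript is near-identical to Hspa1a, Egr1 (2.22 ± 0.43) and Atf3 (1.92 ± 0.46). The list summed to 1317 and 2493 CPM in replicates 1 and 2 of DIV7, against 809 and 757 on DIV3. Their part in the differences of the other lists was not tested.

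**Figure D4:**
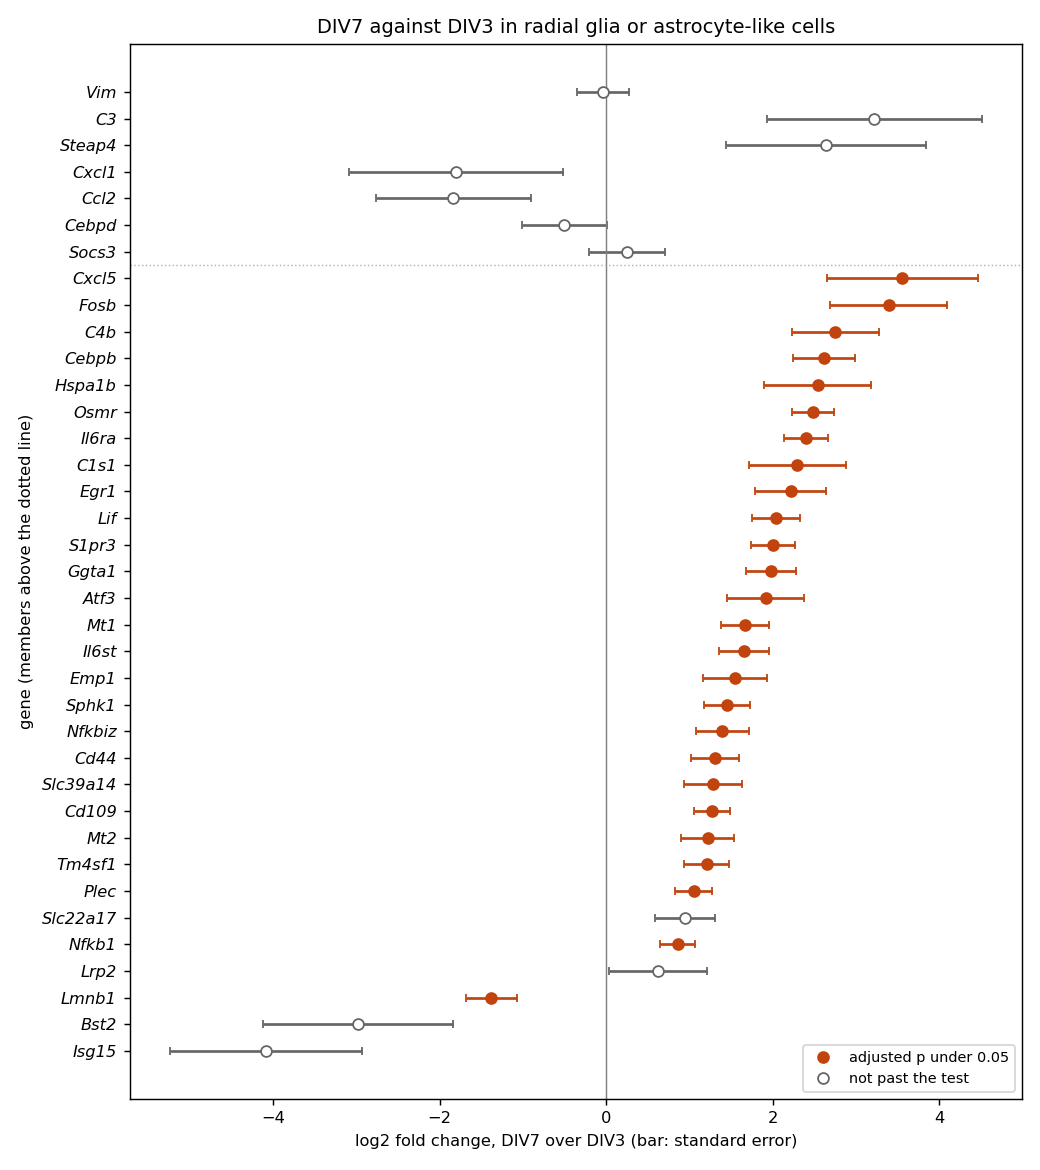
Log2 fold change of DIV7 over DIV3 in radial glia or astrocyte-like cells (x axis, positive is higher on DIV7) for the 7 tested members, above the dotted line, and for the named genes of the other lists; bars are standard errors and filled points passed at an adjusted p of 0.05. The open points of C3 (3.22) and Steap4 (2.64) lie as far right as the filled points of Osmr (2.48) and Il6ra (2.40), with longer bars.

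No call between DIV7 and DIV3 held without DIV3 replicate 1, a fit in which the lone DIV3 library is assumed to vary like those of the other days. Neither the class nor all cells had a gene past the edgeR test then (3659 and 4810 had an unadjusted p under 0.05). Without DIV7 replicate 2 the class had 64 calls and without DIV7 replicate 1 it had 551, against 2388 with all libraries. Of the named genes past the test, Osmr and Il6ra kept their calls in 6 of 7 fits that left out 1 library, Mt2 in 2, Cxcl5, Hspa1b and Nfkb1 in 1, and the others in 3 to 5. The split of calls depended on scaling: 1145 genes were higher and 1243 lower on DIV7 with TMM, and 1302 and 833 with total counts, which moved the median of all genes to 0.18; in all cells it was 1955 and 2019, and 2775 and 996, with a median of 0.29.

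Genes whose log2 levels followed the 3 described genes over the 7 libraries of the class differed between them, among 6039 genes of at least 20 CPM. Those most like Lcn2 were the haem transporter gene Slc48a1 (Pearson r = 0.996) and the MHC class I gene H2-Q4 (0.980), followed by Ift52, Ppp2ca and the MHC class I gene H2-K1 (0.965). H2-K1 was at 270 and 17.0 CPM in replicates 1 and 2 of DIV3, at 149 and 56.1 on DIV5, and at 178 and 73.9 on DIV7, so it shared the higher first replicate. Those most like Gfap were Entpd5 (0.998), Llgl1, Fam19a5, the lipoprotein receptor gene Lrp1 and the sodium pump subunit gene Atp1b2, and 525 genes had r over 0.9. Those most like Serpina3n were the growth factor gene Fgf2 (0.986), the lysosomal protease gene Ctsd, Tmbim6, Acsl6 and Nfasc. Across so few libraries, which share depth and cluster content, these values are a description only.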

How the data were processed

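The deposited matrices hold raw UMI counts per gene and barcode. Per the submitters' processing notes they came from Cell Ranger 4.0.0 with mm9; the version in the matrices is 3.0.2, per the file headers. The 10 genes and the other gene lists were chosen with earlier results of these data known. From each other list at most 4 genes past the test between DIV7 and DIV3 with the largest change are named, or the 2 highest where none passed. The count over the complement list is not reported here.

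Cells needed 500 detected genes, with mitochondrial UMIs of 10% or less; Scrublet doublets were removed (its calls were fewer than expected, so removal of the top scores was tried too). Clustering left out the 10 genes (scanpy 1.11.5, 30 principal components, 15 neighbours, Leiden resolution 1). Clusters were named from marker lists, at a score of at least 0.25 and 1.1 times the next class; these thresholds were set after the clusters were seen. Library depths ranged over 36226566 to 114119537 UMIs before filtering.

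Sums of counts per library and class entered edgeR 4.0.16 under R 4.3.3, with TMM factors and the filterByExpr filter. All 7 libraries shared a fit with 1 mean for each day, to which DIV1 adds no spread. Robust quasi-likelihood F tests were two-sided, with Benjamini-Hochberg adjustment over all genes tested. On simulated counts the fit recovered 92.0% of 4-fold and 25.0% of 2-fold changes in all cells (17442 genes), and 88.9% and 24.8% in the glial class (14364 genes). The simulation gave every gene a dispersion of 0.05 and the same mean in all libraries, with 200 genes changed on DIV7. Genes with a wider spread between libraries, such as C3 and Steap4, were not simulated, so these shares do not apply to them. Alternatives were DESeq2 1.42.0, total-count scaling, no filter, each library left out, a replicate block, other cell filters, doublet settings, clustering settings and class borders. Same-numbered libraries deviated together in all cells (correlations 0.325, 0.165 and 0.423 between days), but no label links the numbers across days. In the glial class the correlations were 0.125 between DIV3 and DIV5, 0.0912 between DIV3 and DIV7, and 0.650 between DIV5 and DIV7.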

Additional observations from a re-analysis of the deposited data

Results flagged for a closer look

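Vim differed in direction between classes when DIV7 was set against DIV3, without overlap of the libraries, and this difference between classes was not tested. On the log2 scale of mean CPM, DIV7 over DIV3, Vim was 0.20 in fibroblast-like cells, against -1.65 in glutamatergic neuron-like, -0.77 in GABAergic neuron-like, -0.65 in ciliated-like and -0.32 in microglia or macrophage-like cells. Glutamatergic neuron-like cells held 60.3 and 78.9 CPM of Vim on DIV7 and 203 and 233 on DIV3, and the GABAergic value rests on 25 to 47 cells a library. The ciliated-like cells were mostly cluster 23 in DIV3 replicate 1 and mostly cluster 1 in DIV3 replicate 2 and on DIV7. The fibroblast-like cells lay in cluster 17 (Vim 1514 CPM) and cluster 8 (1727 CPM). Cluster 17 held 416 and 142 of them in replicates 1 and 2 of DIV3, and 12 and 11 on DIV7. Cluster 8 held 3 and 207 on DIV3, and 198 and 254 on DIV7. The part of this mix in the Vim values was not tested.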

How the results depend on the processing

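The count of genes past the test moved with several settings. In all cells, DIV7 vs DIV3, it was 1686 with the stricter cell filter, against 3974, and 0 to 4002 with 1 library left out. In the glial class, DIV7 vs DIV3, it was 576 at Leiden resolution 2, 4334 with no low-count filter and 0 to 2373 with 1 library left out, against 2388. DIV5 vs DIV3 gave 0, but 742 with DESeq2, 1586 with no low-count filter, 2 with the stricter cell filter, and 1 with total-count scaling, with only the libraries of both days, with the members kept in the clustering or with the unnamed glial cluster added; leaving out 1 library gave 0 to 2. DIV7 vs DIV5 gave 0, but 14 with DESeq2, 212 with no low-count filter and 1 with the stricter cell filter. With the replicate number as a block the counts were 5857 in all cells and, in the glial class, 4210 for DIV7 vs DIV3, 9 for DIV5 vs DIV3 and 0 for DIV7 vs DIV5; Steap4 then passed in the class too. With 2 libraries a day the deviations are mirror images, so each library correlated best with its own number wherever the correlation was above 0. Log2 differences of 5 members and of Lrp2, DIV7 over DIV3, changed sign with 1 library left out. In all cells they ranged over -1.62 to 0.41 for Ccl2, -0.99 to 0.62 for Cebpd, -2.38 to 1.68 for Cxcl1, -0.19 to 0.88 for Socs3 and -0.45 to 0.14 for Vim. In the class they ranged over -2.72 to 0.90 for Ccl2, -1.07 to 0.45 for Cebpd, -2.74 to 1.80 for Cxcl1, -0.65 to 0.78 for Socs3 and -0.36 to 0.37 for Vim, and over -0.36 to 1.21 for Lrp2. The sign turned without DIV3 replicate 1 for Ccl2, Cebpd, Cxcl1 and Vim, without DIV7 replicate 2 for Socs3 (and Vim in the class) and without DIV7 replicate 1 for Lrp2 (and Cebpd in all cells). At Leiden resolution 2, which left 36 cells of the class in DIV3 replicate 1, the differences were 0.95 for Ccl2, 0.19 for Cebpd, 2.36 for Cxcl1 and 0.45 for Vim. With the stricter cell filter Ccl2 was 0.45 in all cells and Vim 0.36 in the class. Vim was 0.086 in all cells and 0.10 in the class with total-count scaling, 0.036 with the unnamed and cycling glial clusters added and 0.0036 with the replicate block. The cause was not tested. C3 and Steap4 were above 0 in each alternative that was run; in the class C3 passed with no low-count filter, at resolution 2 and without DIV3 replicate 2, and Steap4 in the first 2 of these and with the block. Ccl2 passed as lower with no low-count filter and without DIV3 replicate 2, and Cxcl1 with no low-count filter. The borders with cycling clusters, the removal of top doublet scores and the levels under other cell filters were chosen after seeing the data. Depth limits the low genes: 1 UMI of C3 and 5 of Lcn2 stand for the class in DIV3 replicate 2.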
